A study of Mus musculus with 28 samples.

Results

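Cish, Socs1, Socs2, Socs3, Stat3, Stat5a, Stat5b, Jak2, Ghr and Igf1 are genes of growth hormone signalling through STAT5 and of its feedback inhibition. They are 10 of the 45513 rows of a gene count table from mouse hearts. They were selected on measured values, because Cish was higher in CKD-vehicle than in sham-vehicle hearts. All 10 passed the filter on low counts that left 24273 genes for testing. The difference that led to their selection is given below as a description, with no test.

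RNA from the ventricular myocardium of 28 male adult C57BL/6 mice was sequenced, 1 library per mouse. The surgery was either a 5/6 nephrectomy in stages from 6 weeks of age, which models chronic kidney disease (CKD), or a sham operation. On day 7 each mouse received 200 µl of culture medium by gavage, with the oxalate-degrading gut bacterium Oxalobacter formigenes (Oxf) or without it (vehicle). The groups are 10 sham-vehicle, 6 CKD-vehicle, 5 sham-Oxf and 7 CKD-Oxf mice. Every group, controls included, ate chow with 1% hydroxyproline (which the body can turn into oxalate) and 0.5% calcium. The design names 10 mice per group, and the remaining mice are not analysed here.

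Libraries held 19798965 to 65378162 counts. The library sham-Oxf replicate 1 stood apart, with 15879 genes that had a count against 27128 to 33995 in the others, so printed differences of the 10 genes that moved by over 1.5 times without it are also given without it. Ventricular cardiomyocyte markers were abundant in every library, with a summed level of 17018 to 44582 CPM, the count of a gene scaled to the size of its library. A clock score, the mean log2 level (centred on each gene's mean over the libraries) of Dbp, Tef, Hlf, Per1, Per2, Per3, Nr1d2 and Ciart minus that of Arntl, Npas2, Clock and Nfil3, was lowest on average in CKD-vehicle hearts (−1.96 ± 1.04, SD, n = 6) and −0.32 ± 1.24 in their sham controls (n = 10). Under Oxf it was 0.97 ± 0.71 after nephrectomy (n = 7) and 1.62 ± 0.74 after sham surgery (n = 5). The score also rose with mouse number inside each group. From the first to the last mouse it went from −2.10 to 1.14 (sham-vehicle, mice 901 to 910) and −3.03 to −1.05 (CKD-vehicle, 913 to 920). Under Oxf it went from 0.37 to 2.19 (sham, 921 to 929) and −0.56 to 1.30 (CKD, 931 to 940). The groups are separate blocks of mouse numbers, so group and mouse number cannot be told apart. The part of the score in the differences below was not tested beyond a fit that carries it as a covariate. The 7SL RNA, a noncoding RNA abundant in total RNA, took 1.83% to 21.0% of the counts. Sums of atrial markers ranged from 62.8 to 2775 CPM and of skeletal muscle markers from 1.78 to 565 CPM over the 28 libraries. Median atrial sums under vehicle were 1310 CPM after sham surgery and 2145 after nephrectomy, and under Oxf 907 and 1238 CPM. The part of atrial tissue in the differences below was not tested. In bulk tissue, fewer cells of a type and less RNA per cell cannot be told apart.

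Growth hormone binds its receptor, Ghr, which activates the kinase Jak2. Jak2 phosphorylates STAT5 proteins, and these enter the nucleus and drive transcription of Igf1, Cish and Socs2 among others. The CISH and SOCS proteins then bind the receptor complex or the kinase and dampen the signal, and their SOCS box recruits a ubiquitin ligase built on Elongin B, Elongin C and Cullin 5. STAT3 and Socs3 form a similar loop downstream of cytokines of the interleukin-6 family.

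STAT5 dimers recognise the palindrome TTCNNNGAA, and RefSeq promoter windows (GRCm38.p6, 250 bases before to 50 bases after each start) were searched for it. The pattern reads the same on both strands. It was present in 8.3% of 32851 windows, and in 0.457% more than once. Of the 9 genes with a window, Cish held 2 matches, Socs3 held 1 and Igf1, Ghr, Jak2, Stat3, Stat5a, Stat5b and Socs1 held none. Socs2 had no entry. The stretches with matches are shown because they are where this pattern lies near the start of a feedback inhibitor, with the matched bases in capitals.
Cish, chr9:107296654-107296683, plus strand: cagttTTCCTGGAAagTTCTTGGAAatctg
Socs3, chr11:117969502-117969530, minus strand: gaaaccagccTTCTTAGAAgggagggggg
The Cish matches covered bases 1 to 9 and 12 to 20 counted from the RefSeq start, inside an untranslated 5′ exon of a GENCODE M21 transcript of Cish. The Socs3 match began 154 bases before the RefSeq start, inside an intron of a GENCODE M21 transcript of Socs3. A match is a description of the letters and not evidence of binding.

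Levels of different genes were compared as CPM per kilobase of merged GENCODE M21 exons. Stat5b, 11.2 ± 1.89 CPM per kilobase (SD, n = 28), and Stat3, 10.6 ± 1.17, were the highest. Stat5b was above Stat3 in 14 of 28 libraries, so their order is not resolved. Ghr followed at 8.42 ± 1.27, below Stat3 in 24 of 28 libraries, and Jak2 at 6.53 ± 0.54, below Ghr in 26 of 28. Socs2 at 4.32 ± 0.79 lay below Jak2 in all 28 libraries. Cish at 4.07 ± 1.27 and Stat5a at 3.63 ± 0.67 did not separate from their neighbours, since Socs2 exceeded Cish in 17 libraries and Cish exceeded Stat5a in 17. Igf1 at 2.71 ± 1.16 was below Stat5a in 20 libraries, and Socs3 at 2.33 ± 0.73 was below Igf1 in 16. The order pools the groups and differed within some of them. Mean Cish was above Socs2 in CKD-vehicle hearts (5.80 against 4.71 CPM per kilobase), and mean Igf1 was above Stat5a in sham-vehicle hearts (3.39 against 3.21). In both Oxf groups mean Igf1 was below Socs3 (1.99 against 2.29 in sham and 1.80 against 2.79 in CKD hearts). Socs1 was the lowest at 0.39 ± 0.20 CPM per kilobase, below Socs3 in all 28, on 7 to 96 counts per library. The merged exons of Cish, 6419 bases, include retained introns, so its level per length is a low estimate.

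Cish, which encodes the cytokine-inducible SH2 protein, lies on the plus strand at chr9:107296026-107302784 (mm10, GENCODE M21). In sham-vehicle hearts it had a lowest level of 18.5, a median of 19.9 and a highest level of 28.3 CPM. In CKD-vehicle hearts the corresponding values were 29.9, 34.5 and 53.9 CPM. The ranges did not overlap after TMM scaling: all 6 CKD-vehicle hearts were above all 10 sham-vehicle hearts. Relative to total counts, without that scaling, they did overlap. Sham-vehicle replicate 8 had 1271 Cish counts of 38463323, and CKD-vehicle replicate 3 had 1333 of 50523545. The means were 37.2 ± 8.46 CPM (SD, n = 6) and 21.1 ± 2.96 CPM (n = 10), a log2 fold change of 0.82 ± 0.14 (SE), or 1.76-fold. Since this difference chose the genes, nothing is read from its position among all genes, where 31 (0.128%) did not overlap between these groups, 2 (0.00824%) had an adjusted p below 0.05 in edgeR and 1083 (4.46%) an unadjusted p below 0.05.

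The Cish difference leaned on 1 mouse for part of its size. CKD-vehicle replicate 2, at 53.9 CPM, was apart from the other 5 hearts of its group, which lay between 29.9 and 36.3 CPM. Relative to total counts, without TMM scaling, it was not the highest of its group. Replicate 2 had 2585 Cish counts of 65378162, against 1453 of 34325007 in replicate 5. Without replicate 2 the log2 fold change was 0.65. It was also the CKD-vehicle library with the highest cardiomyocyte marker sum. That sum ranged from 29820 to 44582 CPM in CKD-vehicle and from 17018 to 32439 CPM in sham-vehicle hearts, and its part in the Cish difference was not tested. Over 16 fits that each left out 1 library of these groups it ranged from 0.65 to 0.87. With the clock score as a covariate it was 0.78. The Cish count may include reads of antisense neighbours, or lack reads in the stretches shared with them. Gm17040 and Gm17041 overlap 4.07% and 7.46% of its exon bases on the other strand, and no strand setting is given in the sources used here.

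**Figure D1:**
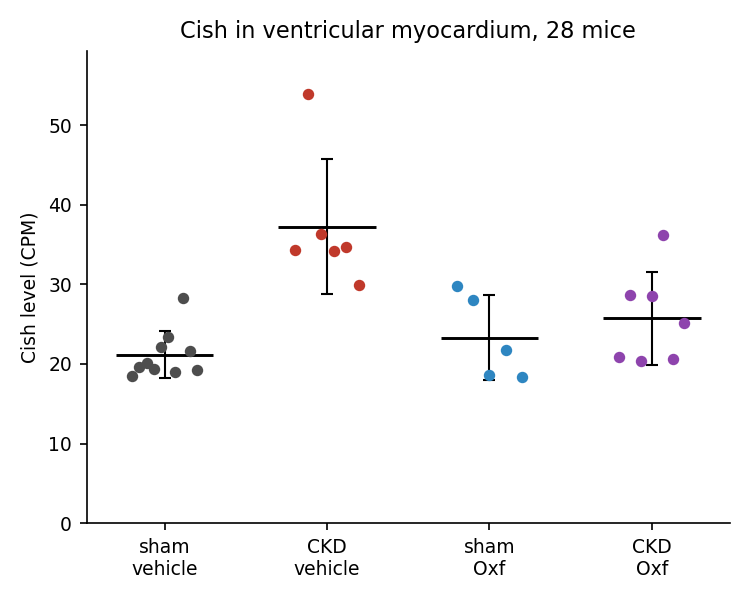
Cish level in CPM (y axis) for each of 28 mice in the 4 groups (x axis). Points are mice, horizontal bars group means and whiskers 1 SD. The 6 CKD-vehicle hearts lie between 29.9 and 53.9 CPM, above all 10 sham-vehicle hearts, while CKD-Oxf hearts lie between 20.3 and 36.2 CPM.

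The comparison of CKD-Oxf with sham-Oxf hearts shares no library with the difference that chose the genes. It gives the surgery difference of Cish in other mice, all of which received Oxf. Because the gavage differs, it is not a repeat of the vehicle comparison. The sham-Oxf hearts had 29.7, 28.1, 18.6, 21.7 and 18.4 CPM. The CKD-Oxf hearts had a lowest level of 20.3, a median of 25.2 and a highest level of 36.2 CPM. Most of both ranges was shared, and 1 of 7 CKD-Oxf hearts exceeded all sham-Oxf hearts. The log2 fold change was 0.14 ± 0.16 (SE), with an edgeR p of 0.377 and an adjusted p of 0.896. Over 12 fits that each left out 1 library of these groups it ranged from 0.03, without CKD-Oxf replicate 5, to 0.25, without sham-Oxf replicate 1. A Cish difference of the size seen under vehicle was thus not detected under Oxf.

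Cish was lower in CKD-Oxf than in CKD-vehicle hearts. This comparison reuses the CKD-vehicle libraries that chose the genes, so it is given as a description. The means were 25.7 ± 5.86 CPM (SD, n = 7) and 37.2 ± 8.46 CPM (n = 6), and the log2 fold change was −0.53 ± 0.15 (SE). In 6 of 7 CKD-Oxf hearts Cish was below every CKD-vehicle heart, and CKD-Oxf replicate 5, at 36.2 CPM, was the exception. The level in CKD-Oxf hearts overlapped that in sham-vehicle hearts, with 3 of 7 above all 10. Between sham-Oxf and sham-vehicle hearts, which reuses the sham-vehicle libraries, Cish differed by 0.14 ± 0.15, and by 0.04 without sham-Oxf replicate 1. The difference between the surgery effects under Oxf and under vehicle was −0.67 ± 0.21 on the log2 scale, and −0.57 without sham-Oxf replicate 1. It also contains the values that chose the genes, so it is given as a description. Over all genes, none passed in that interaction with edgeR (0%) and 862 (3.55%) had an unadjusted p below 0.05.

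Socs2, whose product limits growth hormone receptor signalling, lies at chr10:95385362-95417180 on the minus strand. It had a lowest level of 28.3, a median of 37.0 and a highest level of 46.2 CPM in sham-vehicle hearts. The CKD-vehicle values were 40.0, 44.5 and 49.9 CPM, and 2 of 6 were above all sham-vehicle hearts. The sham-Oxf hearts had 22.8, 38.9, 36.8, 50.9 and 44.7 CPM, with replicate 1 the lowest. The CKD-Oxf values were 34.2, 43.1 and 55.6 CPM. Both surgery differences were positive, 0.27 ± 0.13 (SE) under vehicle and 0.22 ± 0.15 under Oxf, and the groups overlapped in both. Under Oxf the edgeR p was 0.171 and the adjusted p 0.798, and the difference was 0.07 without sham-Oxf replicate 1. Between CKD-Oxf and CKD-vehicle hearts, where Cish was at −0.53, Socs2 had a log2 fold change of 0.01 ± 0.14 (edgeR adjusted p = 0.990). The difference between the 2 genes was not tested.

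Socs3, the inhibitor of the STAT3 arm, lies at chr11:117966079-117970047 on the minus strand. Under vehicle its median was 5.35 CPM after sham surgery and 5.32 after nephrectomy, and under Oxf it was 6.40 and 8.27 CPM. CKD-vehicle replicate 1, at 12.2 CPM, was the highest of all 28. Log2 differences were 0.12 ± 0.21 (SE) for CKD-vehicle against sham-vehicle and 0.31 ± 0.23 for CKD-Oxf against CKD-vehicle (edgeR adjusted p = 0.567). Without that replicate they were −0.16 and 0.59. Socs1, a direct inhibitor of JAK kinases at chr16:10782240-10785536 on the minus strand, lay between 0.183 and 2.61 CPM. Its log2 CPM had an SD of 0.55 to 0.97 within groups. Its 4 pairwise differences had standard errors of 0.39 to 0.44 on the log2 scale, and none passed. The pairwise difference farthest from 0 was −0.66 ± 0.44, for CKD-Oxf against sham-Oxf (edgeR adjusted p = 0.779), and it was −0.35 without sham-Oxf replicate 1.

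Ghr, the growth hormone receptor, lies at chr15:3317760-3583492 on the minus strand. In sham-vehicle hearts it had a lowest level of 67.2, a median of 78.2 and a highest level of 98.9 CPM. The CKD-vehicle values were 75.9, 78.9 and 99.6 CPM. The sham-Oxf hearts had 58.4, 64.1, 75.0, 92.7 and 64.5 CPM, and the CKD-Oxf values were 45.5, 72.2 and 83.8 CPM. In 5 of 7 CKD-Oxf hearts Ghr was below all CKD-vehicle hearts. The log2 fold change between these groups was −0.26 ± 0.12 (SE), with an edgeR p of 0.0478 and an adjusted p of 0.376, so it did not pass. Without CKD-Oxf replicate 5, the lowest heart, it was −0.16. The surgery differences were small, 0.10 ± 0.11 under vehicle and −0.01 ± 0.13 under Oxf, the latter −0.07 without sham-Oxf replicate 1.

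Jak2, the kinase attached to the receptor, lies at chr19:29251828-29313080 on the plus strand. It varied least among the 10 genes, from 27.6 to 38.7 CPM over 28 hearts. Under vehicle its median was 32.3 CPM after sham surgery and 30.6 after nephrectomy, and under Oxf it was 33.1 and 35.5 CPM. In 6 of 7 CKD-Oxf hearts it was above all 6 CKD-vehicle hearts, a log2 fold change of 0.20 ± 0.08 (SE, edgeR p = 0.0149, adjusted p = 0.295). With the clock score as a covariate that difference was 0.06.

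The STAT genes lie close together on chromosome 11. Stat5b is at chr11:100780731-100850724 on the minus strand, Stat5a at chr11:100859351-100885169 on the plus strand and Stat3 at chr11:100885098-100939540 on the minus strand. Stat5a and Stat3 share 72 exon bases at their 3′ ends, so a few reads could be assigned to either or to neither. Stat5a had a lowest level of 18.5, a median of 23.7 and a highest level of 25.7 CPM in sham-vehicle hearts, and 20.3, 25.3 and 28.3 CPM in CKD-vehicle hearts. The sham-Oxf hearts had 29.0, 24.0, 31.2, 21.1 and 24.5 CPM, and the CKD-Oxf values were 25.6, 32.2 and 38.1 CPM. CKD-Oxf hearts were thus the highest group, with 6 of 7 above all 10 sham-vehicle hearts and 5 of 7 above all CKD-vehicle hearts. Against CKD-vehicle hearts, Stat5a in CKD-Oxf hearts had a log2 fold change of 0.34 ± 0.12 (SE, edgeR p = 0.00712, adjusted p = 0.251), and against sham-Oxf hearts 0.27 ± 0.12 (p = 0.0398, adjusted p = 0.568). Neither passed over all genes. Without sham-Oxf replicate 1 the latter was 0.31. Stat5b medians under vehicle were 55.3 CPM after sham surgery and 60.6 after nephrectomy, and under Oxf 65.2 and 73.4 CPM, with log2 differences from 0.06 ± 0.13 to 0.20 ± 0.12 in the 4 pairwise comparisons. Without sham-Oxf replicate 1 Stat5b was 0.03 for sham-Oxf against sham-vehicle and 0.23 for CKD-Oxf against sham-Oxf. Stat3 was even across groups, with medians of 97.7, 103.2, 109.6 and 104.3 CPM in the same order and pairwise differences between −0.01 and 0.08, or −0.07 and 0.14 in the Oxf comparisons without that library.

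**Figure D2:**
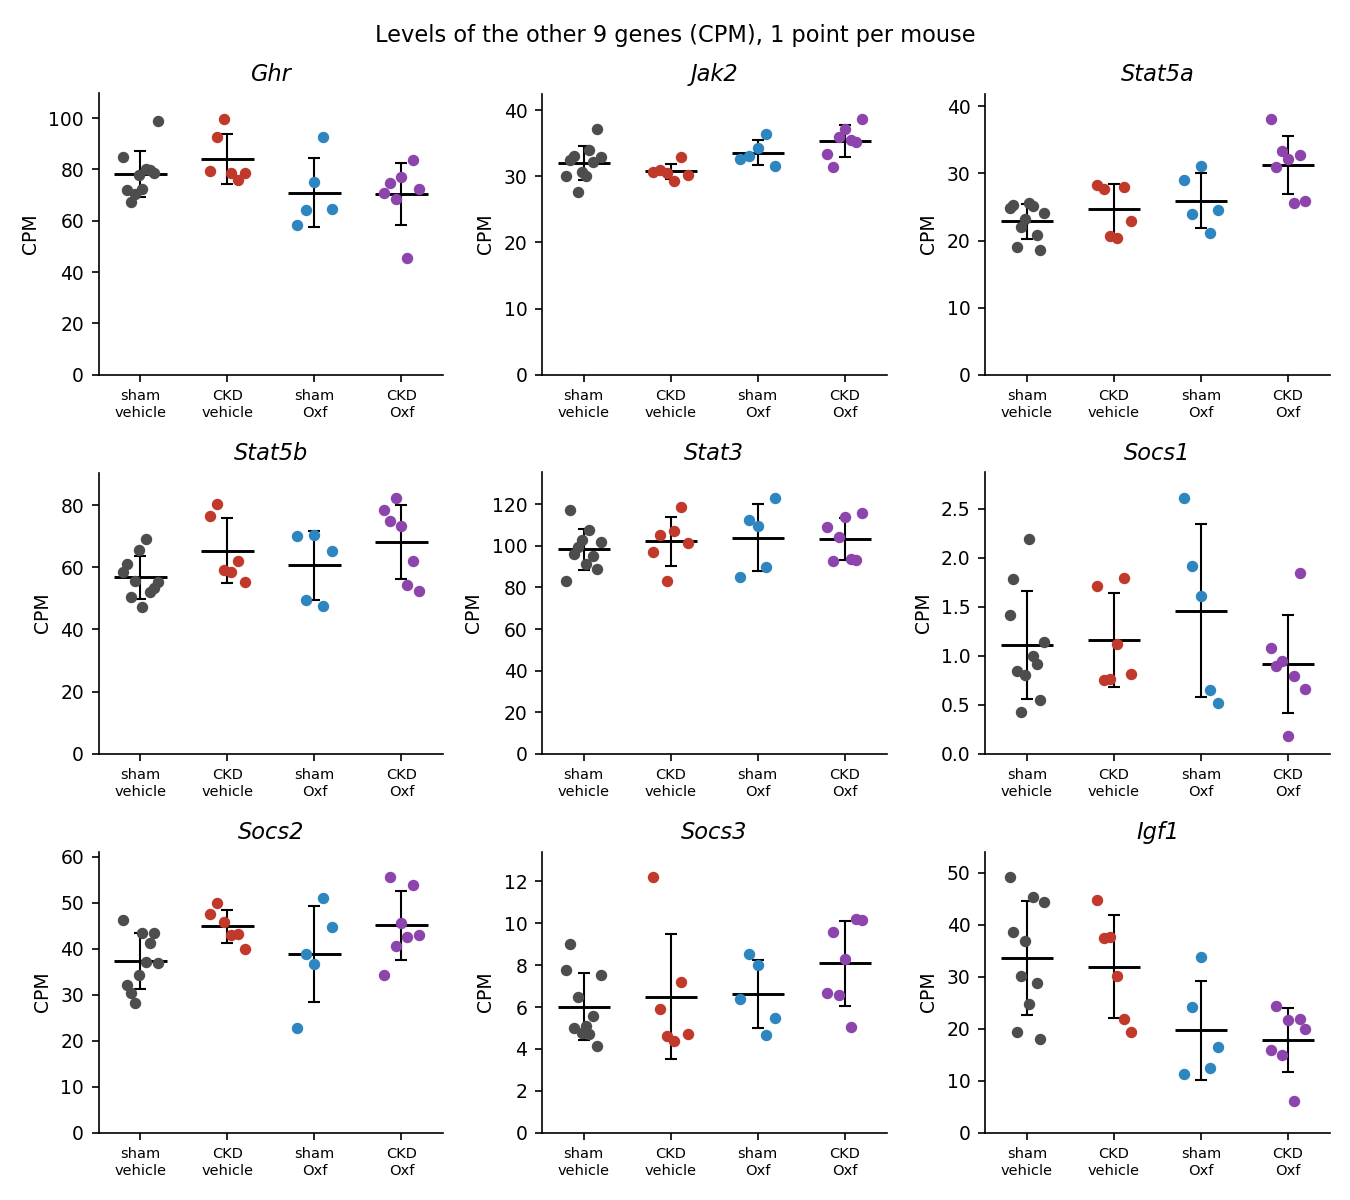
Levels in CPM (y axes, each from 0) of Ghr, Jak2, Stat5a, Stat5b, Stat3, Socs1, Socs2, Socs3 and Igf1 in the 4 groups (x axes). Points are mice, horizontal bars group means and whiskers 1 SD. Stat5a is highest in CKD-Oxf hearts, where 6 of 7 are above all 10 sham-vehicle hearts, and Igf1 has lower means in both Oxf groups.

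Igf1, which encodes insulin-like growth factor 1, the secreted growth signal downstream of growth hormone, lies at chr10:87858265-87937042 on the plus strand. In sham-vehicle hearts it had a lowest level of 18.0, a median of 33.5 and a highest level of 49.2 CPM. The CKD-vehicle values were 19.4, 33.8 and 44.8 CPM. The sham-Oxf hearts had 11.3, 24.3, 33.9, 12.4 and 16.5 CPM, and the CKD-Oxf values were 6.13, 20.0 and 24.3 CPM. Of 6 CKD-vehicle hearts 4 were above all CKD-Oxf hearts, and of 10 sham-vehicle hearts 5 were above all sham-Oxf hearts, so the groups overlapped.

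Averaged over surgery, Igf1 fell with Oxf gavage, with a log2 fold change of −0.80 ± 0.20 (SE), or 0.573-fold (edgeR adjusted p = 0.0373). It was the only one of the 10 genes past the threshold in that comparison, in which 681 genes (2.81%) passed in either direction. The difference was −0.84 ± 0.29 in CKD hearts (adjusted p = 0.243) and −0.77 ± 0.29 in sham hearts (adjusted p = 0.277), and neither passed alone. The latter was −0.63 without sham-Oxf replicate 1. The surgery differences were −0.07 ± 0.26 under vehicle and −0.14 ± 0.30 under Oxf (adjusted p = 0.957), or −0.29 without that library.

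The Igf1 call was close to the threshold. It was kept in 15 of 28 fits that each left out 1 library, with log2 fold changes from −0.94 to −0.73 and adjusted p from 0.0138 to 0.0843. It was lost without any of sham-vehicle replicates 4, 5 and 7, CKD-vehicle replicates 1 to 4, sham-Oxf replicates 4 and 5 and CKD-Oxf replicates 1, 3, 5 and 6. Without both sham-Oxf replicate 1 and CKD-Oxf replicate 5, the lowest hearts of their groups, it was −0.68 (adjusted p = 0.0627), a choice made after the data were seen. With the clock score as a covariate it was −0.48 (adjusted p = 0.719). Fibroblast markers (Col1a1, Col1a2, Pdgfra, Dcn, Lum and Tcf21) moved in the same direction, with median sums under vehicle of 529 CPM (range 273 to 822) after sham surgery and 481 (364 to 756) after nephrectomy, and under Oxf of 359 (279 to 623) and 349 CPM (251 to 605). None of the 6 was at 0 in all libraries. Dcn had the largest group means, 241, 242, 146 and 159 CPM in the same order. Those of Col1a1 were 96.0, 84.4, 85.9 and 70.1 CPM, and those of Col1a2 112, 93.5, 105 and 85.2 CPM. Liver markers (Alb, Apoa1, Ttr, Fgb, Cyp2e1 and Apoh), relevant because liver is the main source of circulating IGF1, had sums of 2.33 to 164 CPM. Their median sums in the same order were 27.1, 4.87, 38.7 and 22.6 CPM. Most of the mean level came from Cyp2e1 alone, with group means of 33.9, 10.3, 24.8 and 47.7 CPM. Group means of Alb were 5.01, 0.64, 9.09 and 14.2 CPM, and those of Apoa1, Ttr, Fgb and Apoh at most 0.86 CPM. The part of either cell type in the Igf1 difference was not tested.

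**Figure D3:**
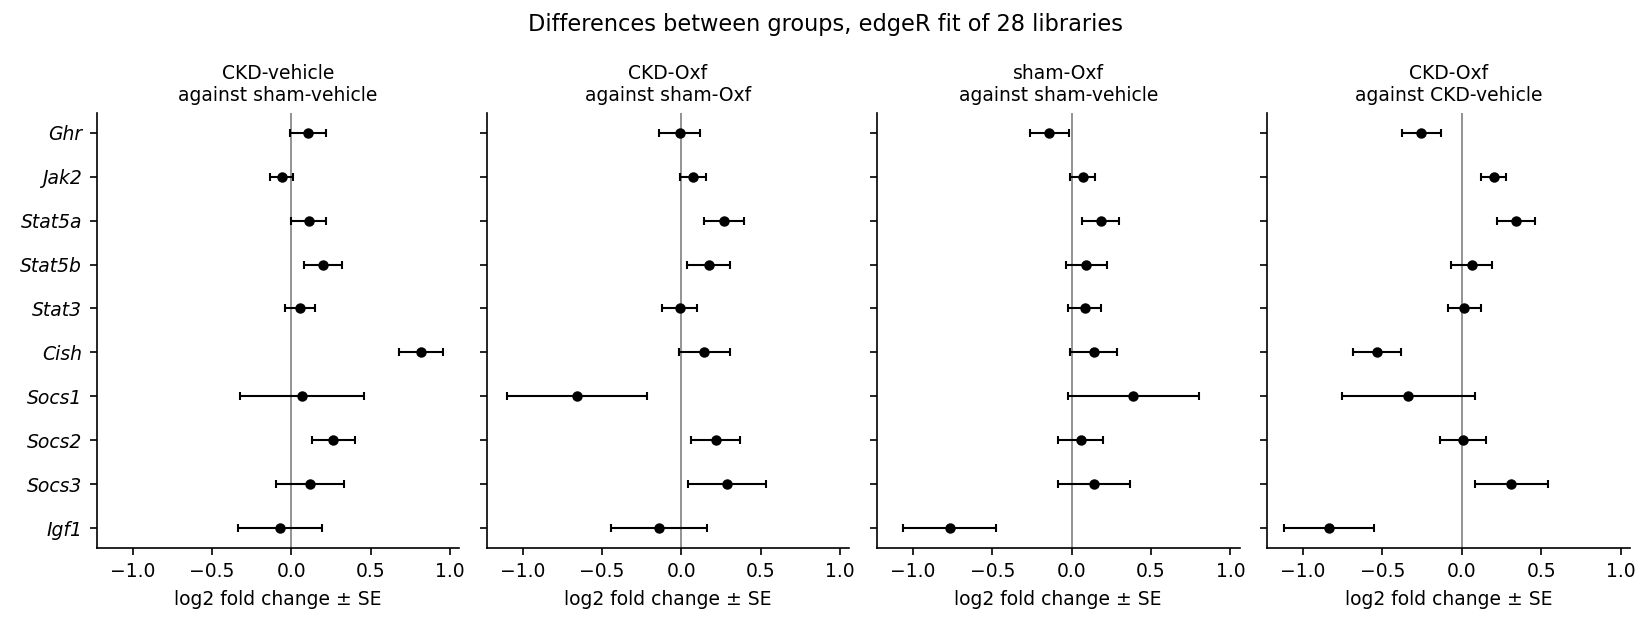
Log2 fold change with its SE (x axes) of the 10 genes (y axis) in the 4 pairwise comparisons, from the edgeR fit of 28 libraries. Cish stands at 0.82 in the CKD-vehicle panel, which chose the genes, and at 0.14 in the CKD-Oxf against sham-Oxf panel, and Igf1 is negative in both Oxf panels (−0.77 and −0.84).

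Over the 10 genes, counts were set beside those over all 24273 genes in each comparison other than CKD-vehicle against sham-vehicle, which chose them. In CKD-Oxf against CKD-vehicle hearts none of the 10 passed with edgeR, while 8 genes (0.033%) did. At an unadjusted p below 0.05 there were 5 of the 10, Stat5a and Jak2 higher and Cish, Igf1 and Ghr lower, and 13.1% of all genes. Cish is in that count only as a description, since its CKD-vehicle libraries were those that chose it. For each of the 10 the groups overlapped, whereas 0.478% of all genes had groups that did not. Besides Cish, limma voom called Igf1 and Stat5a but 3620 genes in all, and DESeq2 called none of the 10 and 190 in all.

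In sham-Oxf against sham-vehicle hearts no gene passed with edgeR (0%). Igf1 was the only one of the 10 at an unadjusted p below 0.05, against 12.6% of all genes, and none of the 10 was free of overlap, against 0.227%. In CKD-Oxf against sham-Oxf hearts no gene passed either (0%). Stat5a alone reached an unadjusted p below 0.05, against 8.23%, and none of the 10 was free of overlap, against 0.272%. DESeq2 called 131 and 100 genes in these comparisons, and none of the 10.

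Averaged over gavage, surgery gave no gene past the threshold (0%) with edgeR. Cish, Socs2, Stat5a and Stat5b were higher at an unadjusted p below 0.05, 4 of 10 against 10.6% of all genes. This average contains the difference that chose the genes, so nothing is read from that count. The values were 0.48 ± 0.11 (SE) for Cish, 0.24 ± 0.10 for Socs2, and 0.19 ± 0.08 and 0.19 ± 0.09 for Stat5a and Stat5b. DESeq2 and limma voom called none of the other 9 genes in that average, and 113 and 125 genes in all. Averaged over surgery, Oxf gave an unadjusted p below 0.05 for Stat5a and Jak2 (higher) and Ghr and Igf1 (lower), 4 of 10 against 23% of all genes. Stat5a, at 0.26 ± 0.08, missed the threshold with an edgeR adjusted p of 0.0671 and passed with DESeq2 (adjusted p = 0.0345).

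Around these genes, 94 further genes of the pathway were listed by role, and 87 of them were tested. None passed in any pairwise comparison. For Oxf averaged over surgery 3 of 87 passed, where 2.81% of all genes did, and 20 (23%) had an unadjusted p below 0.05, as did 23% of all genes. At an unadjusted p below 0.05 there were 4 in CKD-vehicle against sham-vehicle (4.6%), 14 in CKD-Oxf against CKD-vehicle (16.1%), 8 in sham-Oxf against sham-vehicle (9.2%) and 3 in CKD-Oxf against sham-Oxf hearts (3.45%); the shares over all genes are those given above. Growth hormone itself, Gh, had at most 2 counts in any library and was not tested, nor were Il6, Il11 and Epo. Prl is not analysed here.

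Among 7 tested ligands, including the adipose hormone Lep and the interleukin-6 family cytokine Osm, none had an unadjusted p below 0.05 in the pairwise comparisons. Lep was −1.72 ± 1.12 (SE) and Osm −0.84 ± 0.70 on the log2 scale in CKD-vehicle against sham-vehicle hearts. Adipose markers (Adipoq, Plin1, Cfd, Retn and Ucp1) were lower there too, with a median sum of 13.9 CPM (range 2.56 to 179) against 79.5 (3.55 to 362), and their part in the Lep value was not tested. Thpo was 0.81 ± 0.62 and Osm 0.85 ± 0.74 in CKD-Oxf against CKD-vehicle hearts. Among 20 receptors, 2 reached an unadjusted p below 0.05 in CKD-Oxf against CKD-vehicle hearts, both higher. They were Csf3r, the receptor for granulocyte colony-stimulating factor (0.70 ± 0.29), and the interleukin-15 receptor subunit Il15ra (0.38 ± 0.17). Under surgery alone the receptors with the smallest p were Ifngr2 (0.25 ± 0.16) and Il6ra (−0.37 ± 0.25). Among the other 7 JAK and STAT genes, the kinases Tyk2 (0.42 ± 0.17) and Jak3 (0.62 ± 0.30) had the smallest p for CKD-Oxf against CKD-vehicle, and Stat6 (−0.12 ± 0.11) and Jak1 (−0.09 ± 0.10) for CKD-vehicle against sham-vehicle. None of these passed over all genes.

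The 17 other inhibitors were the list in which genes passed, 3 of 17 and only for Oxf averaged over surgery in edgeR, where 2.81% of all genes passed. Sh2b3, an adaptor that restrains JAK2, rose by 0.42 ± 0.11 (SE) on the log2 scale (adjusted p = 0.0351). Pias4, a SUMO ligase that inhibits STATs, rose by 0.36 ± 0.10 (adjusted p = 0.0455). Eloc, which encodes Elongin C of the SOCS-box ligase, fell by 0.50 ± 0.14 (adjusted p = 0.0498). The median of the list was 0.00, as over all genes. Mean levels of Sh2b3 under vehicle were 46.5 ± 9.31 CPM after sham surgery (SD, n = 10) and 39.7 ± 9.61 after nephrectomy (n = 6), and under Oxf 60.4 ± 3.91 (n = 5) and 55.1 ± 8.50 CPM (n = 7). Those of Eloc were 9.35 ± 2.25, 11.5 ± 3.65, 7.11 ± 1.03 and 7.55 ± 2.27 CPM in the same order. These calls were close to the threshold: Sh2b3 kept it in 13, Pias4 in 9 and Eloc in 8 of 28 fits that each left out 1 library, with adjusted p up to 0.086, 0.0972 and 0.106. Without sham-Oxf replicate 1, Pias4 was 0.27 (adjusted p = 0.0644) and Eloc −0.51 (adjusted p = 0.0502). All were lost with the clock score as a covariate (adjusted p from 0.520 to 0.774).

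The other subunits of the same SOCS-box ligase, singled out after their values were seen, also had negative values for Oxf averaged over surgery. Elob, which encodes Elongin B, was at −0.50 ± 0.17 (SE), the scaffold Cul5 at −0.31 ± 0.10 and the RING subunit Rnf7 at −0.43 ± 0.18 on the log2 scale, with edgeR adjusted p of 0.087, 0.079 and 0.140. Cul5 was 0.30 ± 0.14 and the phosphatase gene Ptpn11 0.29 ± 0.13 in CKD-vehicle against sham-vehicle hearts, and in CKD-Oxf against CKD-vehicle hearts Socs5 was 0.24 ± 0.08 and Sh2b3 0.47 ± 0.15. None of these 4 passed.

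Of 9 tested STAT5 target genes other than Cish, Socs2 and Igf1, 1, the kinase gene Pim1 (0.23 ± 0.16, SE), had a positive log2 difference in CKD-vehicle against sham-vehicle hearts, where 44.4% of all genes were positive. Pim1 was named after its value was seen. The median was −0.10 against −0.03 over all genes. Myc, a growth regulator, was −0.70 ± 0.33, and the cyclin gene Ccnd1 was −0.31 ± 0.19. In CKD-Oxf against CKD-vehicle hearts Ccnd3 was 0.43 ± 0.16 and Myc 0.75 ± 0.35. These comparisons share the CKD-vehicle libraries. Of 10 STAT3 targets, none had an unadjusted p below 0.05 in either comparison. Hp, which encodes haptoglobin, was −1.51 ± 1.04 and Lcn2, lipocalin 2, 0.53 ± 0.40 in CKD-vehicle against sham-vehicle hearts, and Cebpb was 0.42 ± 0.27 and the metallothionein gene Mt2 0.76 ± 0.50 in CKD-Oxf against CKD-vehicle hearts. In the IGF axis, of 17 genes tested, Irs1, which couples the IGF1 receptor to its signal, was 0.36 ± 0.18 and the protease gene Pappa2 −0.77 ± 0.39 under surgery with vehicle. The receptor gene Igf1r was 0.30 ± 0.14 and Stc2 0.23 ± 0.12 in CKD-Oxf against CKD-vehicle hearts, where Igf1 itself was at −0.84. None passed over all genes.

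Genes with a pattern like that of Cish were ranked by Spearman correlation of log2 CPM over the 28 libraries among the 13905 tested genes whose mean log2 CPM reached 1. The libraries share groups, depth and clock score, so the values describe the libraries only. The closest were Fv1 (0.67), Fbxw7 (0.64), Nt5e (0.64), Zfp386 (0.64) and Ctps (0.63), and the most opposite were Ssc5d (−0.73), Tpst1 (−0.69) and Bmper (−0.68). Of the 5 closest, 4 were the same without sham-Oxf replicate 1. None was the same after group means were subtracted, when Fv1 stood at 0.38 and Fbxw7 at 0.28. The other selected genes were not close to Cish: Socs2 had 0.32, Ghr 0.10, Stat5b 0.07, Stat5a 0.02, Socs3 −0.12, Igf1 −0.14, Jak2 −0.16 and Stat3 −0.16. Socs1 was below the level needed.

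Within groups, the 10 genes were also compared with the clock score, and 9 of them with Cish, in sham-vehicle, CKD-vehicle and CKD-Oxf hearts. None of the 57 relations passed after Benjamini-Hochberg adjustment, where the smallest adjusted p was 0.38. Igf1 and the clock score had r = −0.94 and rho = −0.89 in CKD-vehicle hearts (n = 6, exact permutation p = 0.0139 and 0.0333). Without the 2 libraries farthest from the median score r was −0.90, on too few hearts to judge the relation. Igf1 and the clock score had r = −0.33 in sham-vehicle (n = 10, permutation p = 0.344) and r = 0.10 in CKD-Oxf hearts (n = 7, exact permutation p = 0.816), so the relation did not recur. Socs2 and Cish had r = 0.81 and rho = 0.83 in CKD-vehicle hearts (n = 6, exact permutation p = 0.0292 and 0.0583). Without the 2 libraries farthest from the median Cish level r was 0.25, again on too few hearts to judge the relation.

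**Figure D4:**
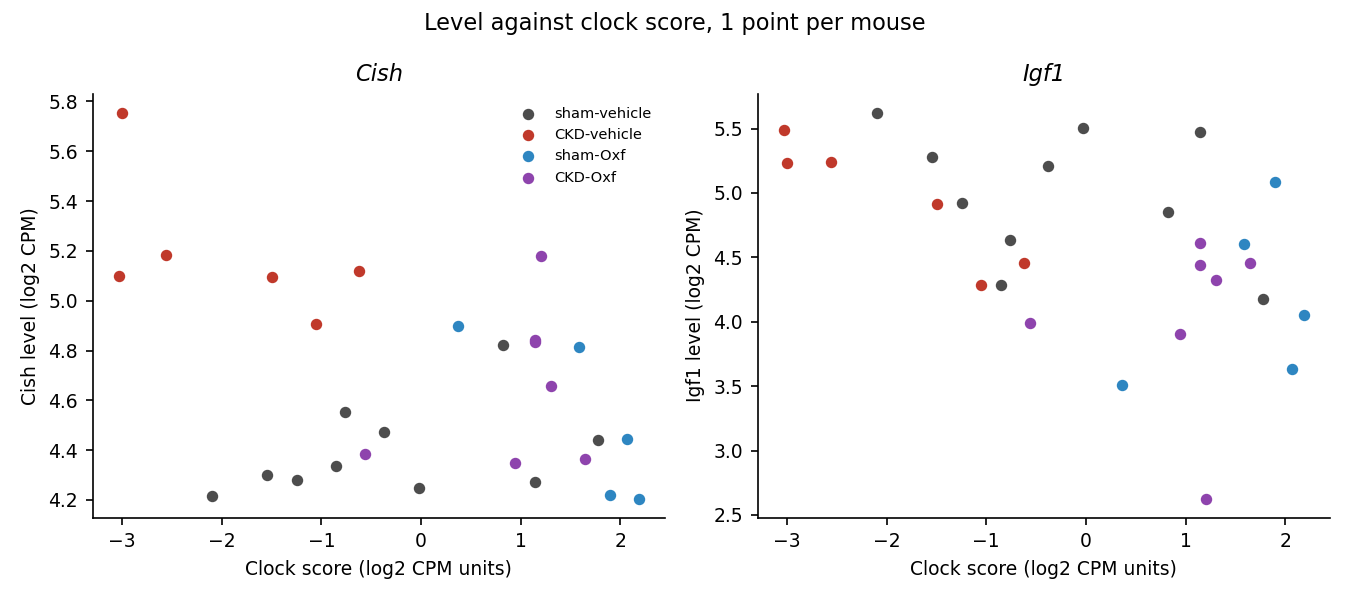
Log2 CPM of Cish (left) and Igf1 (right) on the y axes against the clock score on the x axes, 1 point per mouse, coloured by group. The CKD-vehicle hearts have the lowest mean score (−1.96) and the sham-Oxf hearts the highest (1.62). Within CKD-vehicle hearts (n = 6) Igf1 and the score have r = −0.94, which did not pass adjustment (exact permutation, adjusted p = 0.38). The same r is −0.33 in sham-vehicle and 0.10 in CKD-Oxf hearts.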

How the data were processed

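The authors deposited raw gene counts for 28 libraries. Per the submitters' processing notes, FastQC 0.11.7, MultiQC 1.9, STAR 2.6.1d, Subread featureCounts 1.6.3 and mm10 were used, and the annotation and strand setting are not given in the sources used here. Groups came from the labels. The labels name no batch. The 10 genes, the pathway lists and the tests were chosen with earlier results of these data known.

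Counts were fitted with edgeR 4.0.16 (robust quasi-likelihood F test, TMM scaling, filterByExpr with a minimum count of 10, R 4.3.3) as 4 group means over 28 libraries. P-values were adjusted over 24273 genes by Benjamini-Hochberg at 0.05. Log2 CPM used a prior count of 2. The fits were tested on simulated data. Replicate numbers follow accession order and pair no samples.

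Alternatives were DESeq2 1.42.0, limma 3.58.1 voom with sample weights, 2 other scalings, 2 other filters, the compared groups alone, the clock score or the 7SL RNA share as covariates, and each library left out. Genes named besides the 10 were those past the threshold, the 2 with the smallest p per list for CKD among vehicle mice and for Oxf among CKD mice, and the 5 most and 3 least like Cish. Exact permutations (SciPy 1.17.1) tested relations with fewer than 10 mice.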

Additional observations from a re-analysis of the deposited data

Results flagged for a closer look

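In 3 of 40 combinations of gene and group, 1 heart stood apart by Dixon's criterion (the gap to its nearest neighbour divided by the range of the group, on log2 CPM), where chance gives about 2. Cish in CKD-vehicle replicate 2 was the highest of its group, with a ratio of 0.671. Ghr and Igf1 were the lowest of their group in the same heart, CKD-Oxf replicate 5, with ratios of 0.667 and 0.645. That heart had 45.5 CPM of Ghr and 6.13 CPM of Igf1, and the highest Cish of its group, 36.2 CPM.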

How the results depend on the processing

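No paired analysis was possible because the replicate numbers follow accession order. Counts of the 10 genes called were as follows where they moved. For CKD-vehicle against sham-vehicle, calls of the 10 genes are not listed, because this difference chose them. As a description, its Cish log2 fold change ranged from 0.73 to 0.84 over the settings other than single libraries left out. For CKD-Oxf against CKD-vehicle (0), voom gave 3 and left-out libraries 0 to 1. Cish is in the counts of 3 and 1 only as a description, since it reuses libraries that chose it. For Oxf averaged over surgery (1), DESeq2 and at least 10 counts in every library gave 2, voom 3, and no filter, the clock score, the 7SL share or leaving out both sham-Oxf replicate 1 and CKD-Oxf replicate 5 gave 0, with 0 to 2 for left-out libraries. Cish is in that voom count of 3 only as a description, since the average contains the libraries that chose it. Surgery averaged over gavage contains the difference that chose the genes, so its calls of the 10 are not listed either. Counts over all genes moved more. CKD-vehicle against sham-vehicle (2) gave 29 with DESeq2, 55 with voom, 22 with the 7SL share, 1 with upper quartile scaling, no filter, the compared groups alone or both libraries left out, 0 with the clock score and 0 to 1 with 1 library left out. CKD-Oxf against CKD-vehicle (8) gave 190 with DESeq2, 3620 with voom, 5 with DESeq2 size factors, upper quartile scaling or no filter, 14 with the stricter filter, 0 with the clock score and 0 to 927 with 1 library left out. Oxf averaged over surgery (681) gave 2133, 5307, 161 without a filter, 1422 with the stricter one, 0 with the clock score, 132 with the 7SL share, 222 with both libraries left out and 109 to 3362 with 1 left out. Sham-Oxf against sham-vehicle (0) gave 131 with DESeq2, 32 with voom, 2 with the clock score, 141 with the 7SL share and 0 to 20; surgery averaged (0) gave 113, 125, 3, 45 and 0 to 1; CKD-Oxf against sham-Oxf (0) gave 100 with DESeq2. The causes were not tested. No call reversed its sign. Igf1 for Oxf averaged over surgery ranged from −0.94 to −0.48 over these settings, single libraries left out included. Socs1 had the lowest counts of the 10 genes, at 7 to 96 per library.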
